A study of Mus musculus with 9 samples.

Results

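The DNA replication machinery was followed here as a list of 49 genes given by symbol: the genes that license origins, form the replicative helicase, copy and join the strands, supply deoxynucleotides, rebuild chromatin behind the fork and steady the fork itself. A gene was taken as measured where at least 1 probe set carried its symbol and no other, and among several the one with the highest mean was used. In this way 48 of the 49 genes were measured, of 22180 genes in all, and all 48 were among the 13012 genes tested. Rfc4, a clamp loader subunit, was left without values because its probe set also carried the symbol of Eif4a2.

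The data came from 9 Affymetrix mouse arrays, 3 for each of 3 kinds of culture of wild-type CD1 embryonic cortex, each array made from 100 ng of total RNA. The co-culture held neurons of embryonic day 16 on which precursors of embryonic day 13 had been placed for 1 day. Neurons alone came from embryonic day 16 and spent 5 days in the dish by one label and 4 by another. Precursors alone came from embryonic day 13 and spent 1 day in the dish. Embryonic age and days in the dish thus differed along with cell type, and the 3 cannot be told apart. The labels call the arrays independent biological replicates and do not say which embryos were pooled.

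A cell copies its genome once per division. The origin recognition complex (Orc1 to Orc6) marks origins, Cdc6 and Cdt1 load the ring of Mcm2 to Mcm7 onto them, and geminin (Gmnn) holds Cdt1 back so that no origin is licensed again in the same cycle. At the start of S phase, Cdc45 and the GINS complex join the Mcm ring to form the working helicase, and polymerases alpha, delta and epsilon then copy the strands while the sliding clamp Pcna holds the polymerases on DNA. Many of these genes are transcribed under E2F factors as cells enter S phase. Cortical precursors divide, whereas neurons have left the cycle.

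The labelled cell types were checked against marker genes. All 5 tested markers of cycling cells and all 8 of radial precursors were lower in neurons than in precursors, and 7 of 8 neuron markers were higher, Tubb3 being the exception. The 5 cycling markers had summed levels, given as log2 of the sum, of 12.2 to 12.3 in the co-culture arrays, 9.40 to 9.80 in the neuron arrays and 12.3 to 12.4 in the precursor arrays. Single cycling markers averaged from 6.12 (Bub1) to 7.80 (Cdk1) in the neuron arrays, against array medians of 6.75 to 6.79. No background level was measured, so whether these genes were expressed there at all is not shown. Their mean log2 level was higher in neuron replicate 2 (7.38) than in replicates 1 and 3 (6.99 and 6.98). The 8 radial precursor markers summed to 14.1 to 14.2 in the co-culture arrays, 13.2 to 13.4 in the neuron arrays and 14.1 to 14.2 in the precursor arrays. The 8 neuron markers summed to 13.8 to 13.9 in the co-culture arrays, 14.4 in the neuron arrays and 13.6 in the precursor arrays. All 4 markers of intermediate progenitors and newborn neurons were lower in neurons too (median log2 difference -1.12, led by Nhlh1 at -3.43 and Eomes at -1.27), with sums of 10.2 to 10.5 in the co-culture arrays, 8.76 to 8.97 in the neuron arrays and 10.4 to 10.6 in the precursor arrays. Of markers of microglia, 2 were lower and 1 higher of 5 tested in neurons, and of endothelial cells and pericytes 3 of 4 were lower. Of 2 tested astrocyte markers Gja1 was lower (-1.18) and Aldh1l1 higher (0.33), and of 3 tested oligodendrocyte lineage markers Olig2 was lower (-0.30). Their part in the results was not tested. In whole-culture RNA, fewer dividing cells and less RNA per cell cannot be told apart.

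Replication genes were lower in neurons than in precursors almost throughout. Of the 48 measured genes, 44 fell in neurons past an adjusted p of 0.05 (limma with Benjamini-Hochberg adjustment over all tested genes), where 35.2% of all tested genes did so. A fall of at least 2-fold past the same threshold was found for 36 of the 48, against 4.80% of all tested genes. The median log2 difference, neurons minus precursors, was -1.43 over the 48 genes and -0.020 over all tested genes. All 48 differences lay below 0, from -2.61 for Mcm5 to -0.075 for Orc4, and for Orc4 the sign turned under cyclic loess scaling (0.013). The 4 genes short of the threshold were Orc3, Orc4, Orc5 and Fen1. In 45 of the 48 genes all 3 neuron arrays lay below all 3 precursor arrays, as they did for 36.9% of all tested genes.

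**Figure D1:**
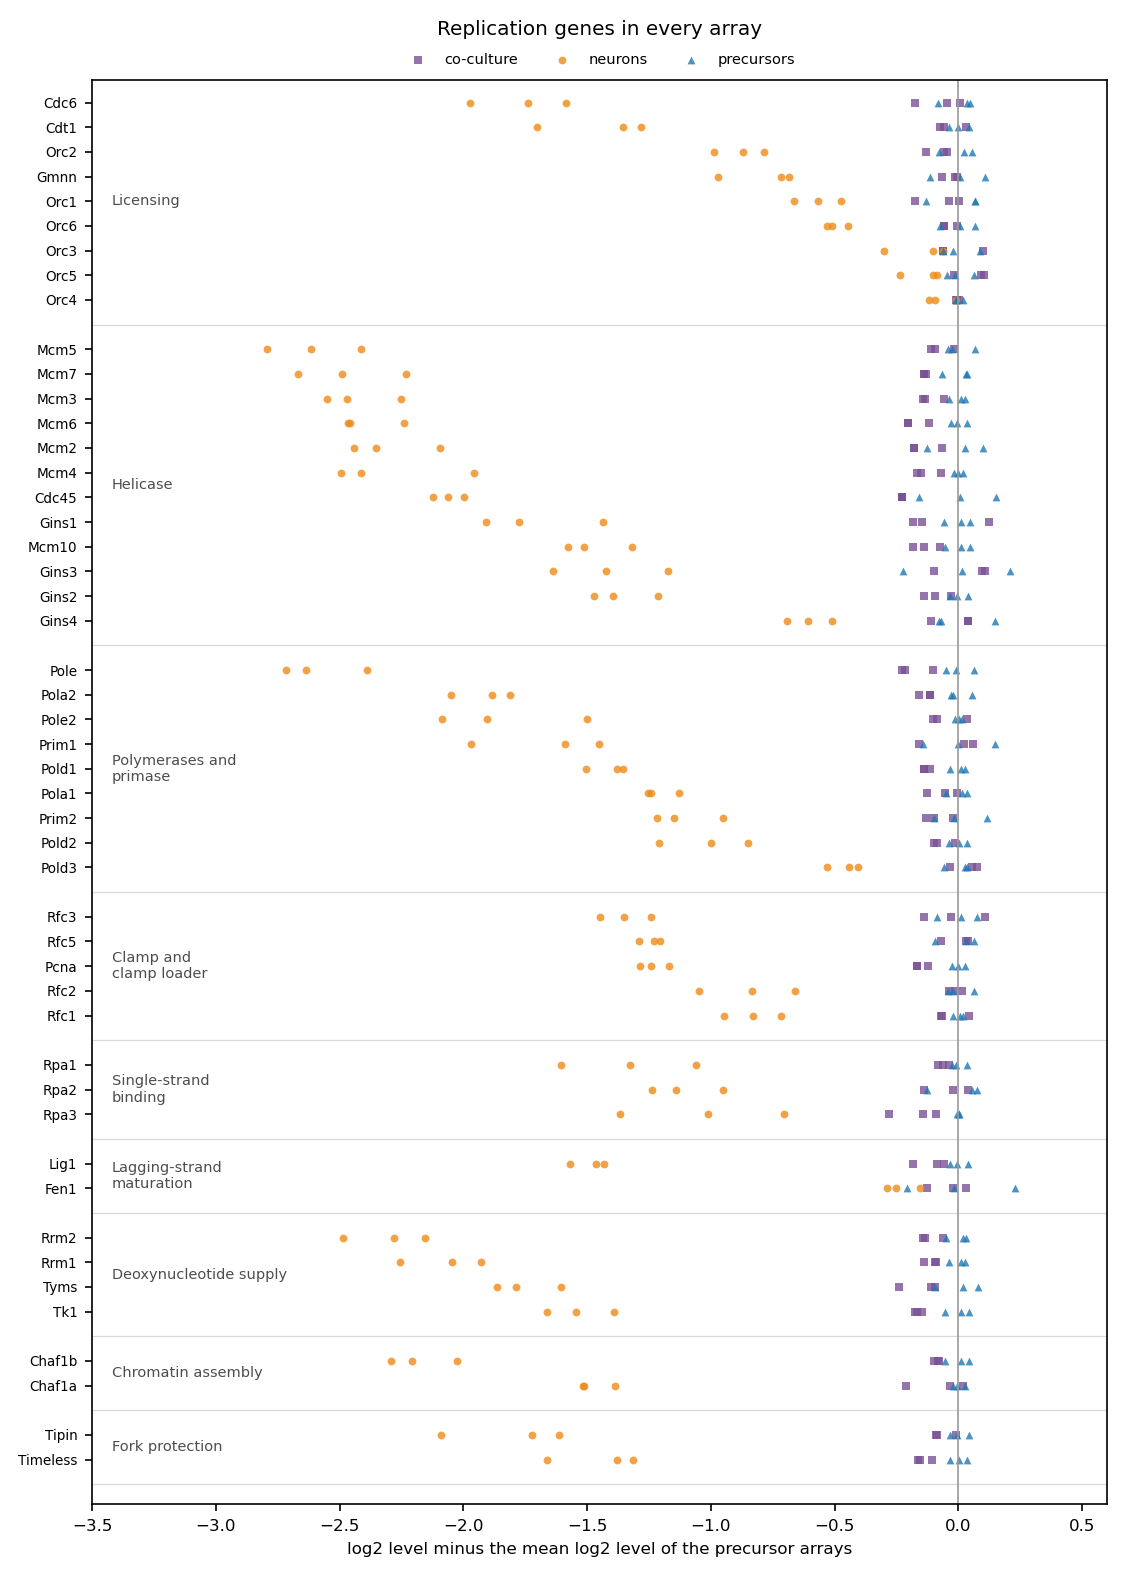
Each row is 1 of the 48 measured replication genes, grouped by role. The horizontal axis is the log2 level minus the mean log2 level of the 3 precursor arrays, and each point is 1 array: squares for co-culture, circles for neurons and triangles for precursors. Neuron arrays lie to the left for nearly all genes, by as much as 2.61 on average for Mcm5, whereas co-culture arrays lie close to the precursor arrays. Orc3, Orc4, Orc5 and Fen1 show the smallest shifts.

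The filter on dim probe sets asked for a level above the array median in at least 3 arrays. It was met in all 9 arrays by 34 of the genes. Another 13 lay above the median in every precursor and co-culture array but not in every neuron array. Of all 48 genes, 9 lay below the median in all 3 neuron arrays, a count that overlaps the 13. These 9 passed the filter only through precursor and co-culture arrays, so a lower level in neurons was favoured by their selection. With no filter, 44 of the 48 genes were again lower in neurons past the threshold. Near the dim end of an array, folds can be understated.

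Origin licensing genes covered a wide range. Of the 9 licensing genes, 6 fell in neurons, with a list median of -0.57 on the log2 scale. Cdc6, the loader of the Mcm ring, had log2 levels of 7.73, 7.67 and 7.55 in the co-culture arrays, 6.13, 5.98 and 5.75 in the neuron arrays and 7.77, 7.76 and 7.64 in the precursor arrays. The neuron arrays were all lower than the other 6 arrays, and the neuron level was 3.40-fold lower than the precursor level (log2 difference -1.77, SE 0.093, adjusted p = 1.42e-07). Its partner Cdt1 had log2 levels of 8.38, 8.36 and 8.47 in the co-culture arrays, 7.09, 6.74 and 7.16 in the neuron arrays and 8.48, 8.40 and 8.44 in the precursor arrays, and fell in neurons by 2.72-fold (adjusted p = 7.26e-07). Geminin, the inhibitor of Cdt1, fell too, with a log2 difference of -0.79 (SE 0.082).

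Among the 6 subunits of the origin recognition complex, the log2 differences ran from -0.88 to -0.075, and 3 passed the threshold. Orc2 (-0.88), Orc1 (-0.57) and Orc6 (-0.50) fell. Orc4 had log2 levels of 9.19, 9.18 and 9.18 in the co-culture arrays, 9.07, 9.18 and 9.09 in the neuron arrays and 9.18, 9.18 and 9.21 in the precursor arrays. The groups overlapped, and the 95% interval of the log2 difference between neurons and precursors was -0.17 to 0.021 (adjusted p = 0.154). Neurons and precursors met only at a tied value, 9.17889, deposited for co-culture replicate 3, neuron replicate 2 and precursor replicates 1 and 2. Orc3 likewise had 9.29038 in co-culture replicates 2 and 3, neuron replicate 1 and precursor replicate 2. Why values were tied is not known. Orc3 and Orc5 had differences of -0.16 and -0.14 (adjusted p = 0.0983 and 0.0544). Orc4 passed the threshold when neuron replicate 2 was left out (adjusted p = 0.0444, range 0.0444 to 0.782 over its alternatives), and Orc5 when neuron replicate 1 was left out (adjusted p = 0.0474, range 0.0347 to 0.326).

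The helicase genes showed the lowest list median, -2.17 on the log2 scale, and all 12 fell in neurons. The 6 subunits of the Mcm2 to Mcm7 ring, which are bound together in the complex in equal numbers, also fell by similar amounts. Their log2 differences spanned only 0.32, from -2.61 to -2.29, which is a range of 4.89-fold to 6.09-fold. Mcm5 had log2 levels of 10.17, 10.10 and 10.08 in the co-culture arrays, 7.40, 7.78 and 7.58 in the neuron arrays and 10.26, 10.15 and 10.16 in the precursor arrays. Its neuron arrays lay far below all others (log2 difference -2.61, SE 0.086, adjusted p = 7.47e-09). Mcm7 had log2 levels of 10.18, 10.18 and 10.19 in the co-culture arrays, 7.83, 8.09 and 7.65 in the neuron arrays and 10.35, 10.25 and 10.35 in the precursor arrays, and was 5.51-fold lower in neurons (SE 0.093 on the log2 scale, adjusted p = 1.69e-08). In both genes neuron replicate 2 was the highest of the neuron arrays. That was so for 28 of the 48 replication genes, and 44.9% of all tested genes were also highest in that array among the neurons.

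The partners of the ring also fell, with smaller differences. Cdc45, which joins the ring at the start of S phase, had a log2 difference of -2.06 (SE 0.073), and Mcm10, a factor needed for helicase activation, one of -1.47 (SE 0.069). The 4 GINS subunits ranged from -1.71 for Gins1 to -0.60 for Gins4. Gins4 had log2 levels of 9.84, 9.84 and 9.69 in the co-culture arrays, 9.11, 9.29 and 9.19 in the neuron arrays and 9.95, 9.73 and 9.73 in the precursor arrays. Its neuron arrays still lay below all others (adjusted p = 7.21e-05), with a fold of 1.52.

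Because E2F factors act at promoters, the promoter windows of the replication genes were searched for the E2F-type motifs TTTCCCGC, TTTGGCGC, TTTCGCGC and TTTGCCGC on both strands. A window runs from 250 bases before to 50 bases after the annotated start, in the RefSeq annotation of GRCm38.p6, and the sequences are those of RefSeq. Windows were available for 39 of the 48 measured genes. None was available for Gins1, Gins2, Gins4, Gmnn, Mcm4, Pole, Prim2, Rfc2 and Tipin, so these were not searched. At least 1 of the motifs was found for 15 of the 39 genes with a window (38.5%), a gene being counted if any of its windows held one. Among all 27025 genes with a window, tested or not, 2.61% held one, and among the 7795 genes with a GC content at or above the replication genes' median of 60% the share was 4.90%. Each motif contains a C followed by a G. Windows of replication genes held a median of 21 such steps, against 7 over all genes with a window, and genes were not matched for this count. Among related genes of S-phase control and the fork outside the list, 15 of the 49 with a window held a motif (30.6%). Of the replication genes, TTTCCCGC was found in 8, TTTGGCGC in 6, TTTCGCGC in 6 and TTTGCCGC in 0. A match is a run of letters and was not shown to be a bound site.

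The windows of the 3 genes with the largest neuron differences among those with a motif, and that of the gene with the smallest difference, are shown 5′ to 3′ on the strand of the gene. They were picked by their differences, so they do not compare genes with and without a motif. Capitals mark the motif matches in either orientation.
Mcm5 (chr8:75109259-75109558, plus strand): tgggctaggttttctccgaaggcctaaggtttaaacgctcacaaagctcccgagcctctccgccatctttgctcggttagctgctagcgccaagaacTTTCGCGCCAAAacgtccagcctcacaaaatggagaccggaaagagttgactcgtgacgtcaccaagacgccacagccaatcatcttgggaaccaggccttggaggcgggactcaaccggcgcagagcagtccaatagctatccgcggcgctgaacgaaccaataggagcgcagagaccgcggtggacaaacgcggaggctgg
Mcm7 (chr5:138171834-138172133, minus strand): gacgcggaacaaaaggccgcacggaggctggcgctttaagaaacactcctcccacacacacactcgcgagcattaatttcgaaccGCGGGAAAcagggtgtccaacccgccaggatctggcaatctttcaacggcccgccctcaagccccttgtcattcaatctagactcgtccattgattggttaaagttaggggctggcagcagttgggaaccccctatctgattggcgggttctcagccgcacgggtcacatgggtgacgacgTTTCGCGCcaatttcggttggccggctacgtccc
Mcm3 (chr1:20820263-20820562, minus strand): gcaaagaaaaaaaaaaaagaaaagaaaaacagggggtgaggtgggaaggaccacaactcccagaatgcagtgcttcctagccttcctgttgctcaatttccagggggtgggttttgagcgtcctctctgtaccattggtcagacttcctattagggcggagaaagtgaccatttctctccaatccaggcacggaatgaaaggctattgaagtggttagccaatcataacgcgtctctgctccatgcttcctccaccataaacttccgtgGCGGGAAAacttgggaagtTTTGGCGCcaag
Orc4 (chr2:48949218-48949517, minus strand): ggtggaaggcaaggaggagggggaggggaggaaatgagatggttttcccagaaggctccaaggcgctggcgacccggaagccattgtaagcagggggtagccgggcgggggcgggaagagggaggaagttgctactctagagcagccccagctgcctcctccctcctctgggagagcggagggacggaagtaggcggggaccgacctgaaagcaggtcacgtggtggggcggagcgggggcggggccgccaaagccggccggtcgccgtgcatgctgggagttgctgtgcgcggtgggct
Counting the first base of the gene as 1, the matches began at -153 and -149 in Mcm5, where they overlap on opposite strands, at -165 and 17 in Mcm7, and at 20 and 39 in Mcm3. Mcm6, a further ring subunit, held 3 matches, at -110, -106 and -47, and the first pair overlap. The Orc4 window held none of the 4 motifs.

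**Figure D2:**
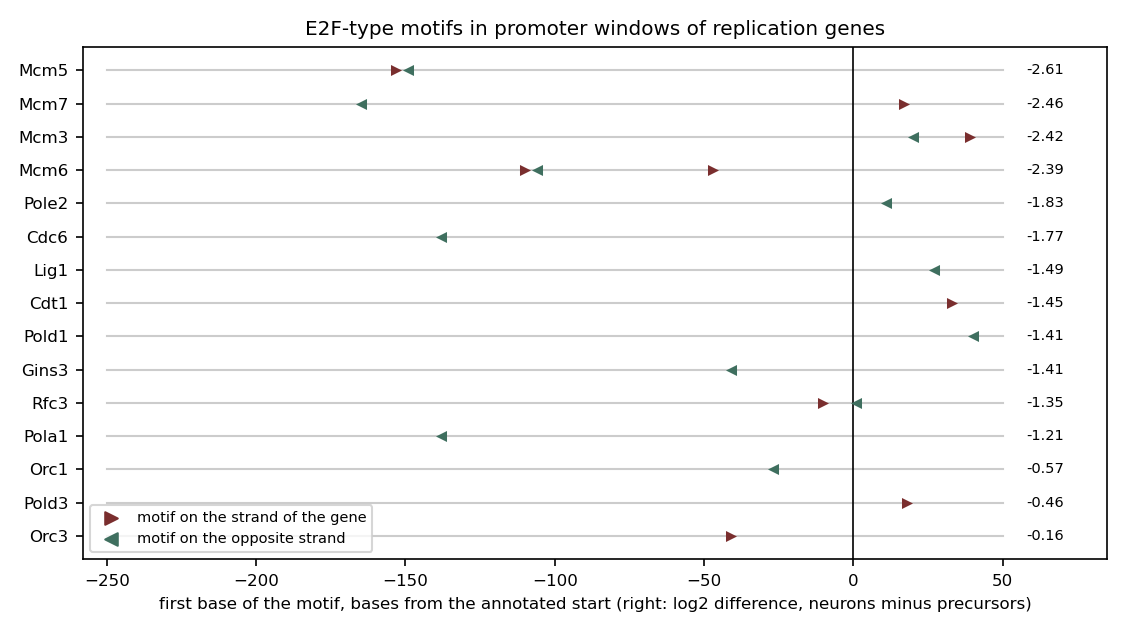
Each line is the promoter window of 1 of the 15 replication genes with a motif, ordered by the log2 difference of neurons minus precursors that is printed at the right. The horizontal axis is the distance in bases of the first motif base from the annotated start, and triangles point right for the strand of the gene and left for the opposite strand. Of the 21 matches 12 lie upstream of the start, 5 of them within 100 bases of it, and genes with small differences such as Orc3 hold a motif too.

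Among the replication genes themselves, genes with and without a motif had similar medians. The median log2 difference of neurons minus precursors was -1.45 over the 15 genes with a motif and -1.39 over the 24 without one. Genes with a motif covered differences from -2.61 to -0.16, and those without from -2.31 to -0.075. These medians are a description and were not tested.

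All 9 polymerase and primase genes fell in neurons, with a list median of -1.41. Polymerase epsilon, which copies the leading strand, had differences of -2.58 for its catalytic subunit Pole and -1.83 for Pole2. Pole had log2 levels of 9.27, 9.14 and 9.15 in the co-culture arrays, 6.74, 6.98 and 6.65 in the neuron arrays and 9.36, 9.32 and 9.43 in the precursor arrays. Neuron arrays lay below all others (SE 0.081, adjusted p = 5.77e-09), and the fold was 5.98. A second and dimmer Pole probe set showed a log2 difference of only -0.19 (adjusted p = 0.0258), and the mean of the pair was at -1.39. That second set lay below the array median in all 9 arrays (group means 6.20 to 6.39), where folds can be understated.

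Polymerase alpha and primase, which lay down the primers, ranged from -1.91 to -1.11. Pola2, the accessory subunit of polymerase alpha, had log2 levels of 9.27, 9.22 and 9.27 in the co-culture arrays, 7.50, 7.57 and 7.33 in the neuron arrays and 9.44, 9.36 and 9.35 in the precursor arrays, a 3.77-fold fall in neurons (SE 0.062 on the log2 scale). The 3 subunits of polymerase delta, the main lagging-strand polymerase, ranged from -1.41 for its catalytic subunit Pold1 to -0.46 for Pold3. Pold3 had log2 levels of 9.35, 9.24 and 9.33 in the co-culture arrays, 8.83, 8.87 and 8.74 in the neuron arrays and 9.30, 9.22 and 9.31 in the precursor arrays. Although small, this fall separated all neuron arrays from the rest (adjusted p = 3.41e-05).

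The sliding clamp and its loader fell by middling amounts, with 5 of 5 genes past the threshold and a list median of -1.23. Pcna, the clamp, had log2 levels of 11.33, 11.37 and 11.32 in the co-culture arrays, 10.21, 10.32 and 10.25 in the neuron arrays and 11.52, 11.47 and 11.49 in the precursor arrays. This was a 2.35-fold fall in neurons (SE 0.045 on the log2 scale, adjusted p = 1.38e-08). The 4 measured loader subunits ran from -1.35 to -0.83. Rfc3, the one with the largest fall, had log2 levels of 8.98, 8.84 and 8.73 in the co-culture arrays, 7.52, 7.63 and 7.43 in the neuron arrays and 8.88, 8.79 and 8.95 in the precursor arrays. Rfc5 followed, at 9.32, 9.33 and 9.22 in the co-culture arrays, 8.08, 8.06 and 7.999 in the neuron arrays and 9.35, 9.20 and 9.32 in the precursor arrays. Rfc1, the large subunit, fell least, at 8.32, 8.21 and 8.21 in the co-culture arrays, 7.45, 7.56 and 7.33 in the neuron arrays and 8.25, 8.28 and 8.29 in the precursor arrays. In each of the 3 genes the neuron arrays were all below the other arrays.

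The 3 subunits of replication protein A, which coats single-stranded DNA at the fork, all fell in neurons, with log2 differences of -1.33 for Rpa1, -1.11 for Rpa2 and -1.03 for Rpa3. Rpa1 had log2 levels of 8.86, 8.88 and 8.84 in the co-culture arrays, 7.59, 7.86 and 7.32 in the neuron arrays and 8.91, 8.90 and 8.96 in the precursor arrays. Rpa2 had 8.09, 7.92 and 8.03 in the co-culture arrays, 6.91, 6.81 and 7.10 in the neuron arrays and 8.13, 7.93 and 8.11 in the precursor arrays, and Rpa3 had 10.59, 10.64 and 10.46 in the co-culture arrays, 9.72, 10.03 and 9.37 in the neuron arrays and 10.74, 10.74 and 10.73 in the precursor arrays. The neuron arrays of Rpa3 spread more widely (SD 0.33) than those of most of the list, with its SE at 0.14. A second and dimmer Rpa1 probe set did not follow the first (log2 difference 0.015, adjusted p = 0.835), and the mean of the pair was at -0.66. That Rpa1 set lay far below the array median in all 9 arrays (group means 4.87 to 4.92). Its flat difference therefore does not show that the probe sets disagree. A second and dimmer Rpa3 probe set had a smaller difference, -0.41 (adjusted p = 0.00289), and the mean of the pair was at -0.72. That Rpa3 set lay above the array median in all 9 arrays (group means 7.70 to 8.12). Whether Rpa3 fell by at least 2-fold thus depends on the probe set.

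Of the pair of genes that finish the lagging strand, only Lig1 passed the threshold. Lig1, the ligase that joins Okazaki fragments, had log2 levels of 8.97, 8.94 and 8.84 in the co-culture arrays, 7.56, 7.46 and 7.60 in the neuron arrays and 9.07, 8.996 and 9.02 in the precursor arrays, a 2.81-fold fall in neurons (SE 0.053 on the log2 scale, adjusted p = 1.28e-08). Fen1, the flap endonuclease that trims their ends, had log2 levels of 7.55, 7.39 and 7.50 in the co-culture arrays, 7.27, 7.24 and 7.37 in the neuron arrays and 7.32, 7.50 and 7.75 in the precursor arrays. The groups overlapped, with 1 precursor array inside the range of the neuron arrays (log2 difference -0.23, 95% interval -0.45 to -0.010, adjusted p = 0.0647). A second and dimmer Fen1 probe set fell in neurons too (log2 difference -0.64, SE 0.11, adjusted p = 4.67e-04), so the result for Fen1 depends on the probe set. The mean of the pair was at -0.44 (adjusted p = 0.00146). With precursor replicate 1 left out, the brighter probe set passed the threshold as well (adjusted p = 0.00798, range 0.00146 to 0.222 over the alternatives).

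Genes of deoxynucleotide supply were among those with the largest falls, 4 of 4 with a list median of -1.92. Rrm2, the cycle-regulated subunit of ribonucleotide reductase, had log2 levels of 9.55, 9.62 and 9.54 in the co-culture arrays, 7.20, 7.40 and 7.53 in the neuron arrays and 9.63, 9.70 and 9.71 in the precursor arrays. Rrm1, its large subunit, had 10.64, 10.63 and 10.59 in the co-culture arrays, 8.68, 8.80 and 8.47 in the neuron arrays and 10.75, 10.69 and 10.74 in the precursor arrays. Neurons were 4.95-fold lower for Rrm2 and 4.22-fold lower for Rrm1, with no overlap. Tyms, which makes thymidylate, fell as well (log2 difference -1.75, SE 0.076). Tk1, the thymidine kinase of dividing cells, had log2 levels of 9.37, 9.40 and 9.38 in the co-culture arrays, 8.15, 7.88 and 8.002 in the neuron arrays and 9.56, 9.59 and 9.49 in the precursor arrays, a 2.89-fold fall. A second and dimmer Rrm2 probe set showed a difference of only -0.23 (adjusted p = 0.0148), and the mean of the pair was at -1.27. This dimmer set lay far below the array median in all 9 arrays (group means 4.45 to 4.76), where folds can be understated.

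Chaf1b and Chaf1a, subunits of the assembly factor that places histones on new DNA, both fell in neurons. Chaf1b had log2 levels of 9.46, 9.44 and 9.46 in the co-culture arrays, 7.33, 7.52 and 7.25 in the neuron arrays and 9.55, 9.49 and 9.58 in the precursor arrays. Chaf1a had 8.01, 7.96 and 7.78 in the co-culture arrays, 6.48, 6.47 and 6.60 in the neuron arrays and 8.02, 7.99 and 7.97 in the precursor arrays. The falls were 4.52-fold and 2.78-fold. Timeless and Tipin, which travel with the fork and keep it stable, also fell both. Tipin had log2 levels of 7.86, 7.86 and 7.94 in the co-culture arrays, 5.86, 6.33 and 6.23 in the neuron arrays and 7.91, 7.99 and 7.94 in the precursor arrays. Timeless had 7.71, 7.70 and 7.76 in the co-culture arrays, 6.55, 6.21 and 6.49 in the neuron arrays and 7.90, 7.87 and 7.83 in the precursor arrays. The folds were 3.50 and 2.74, and in all 4 genes the neuron arrays lay below the rest.

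**Figure D3:**
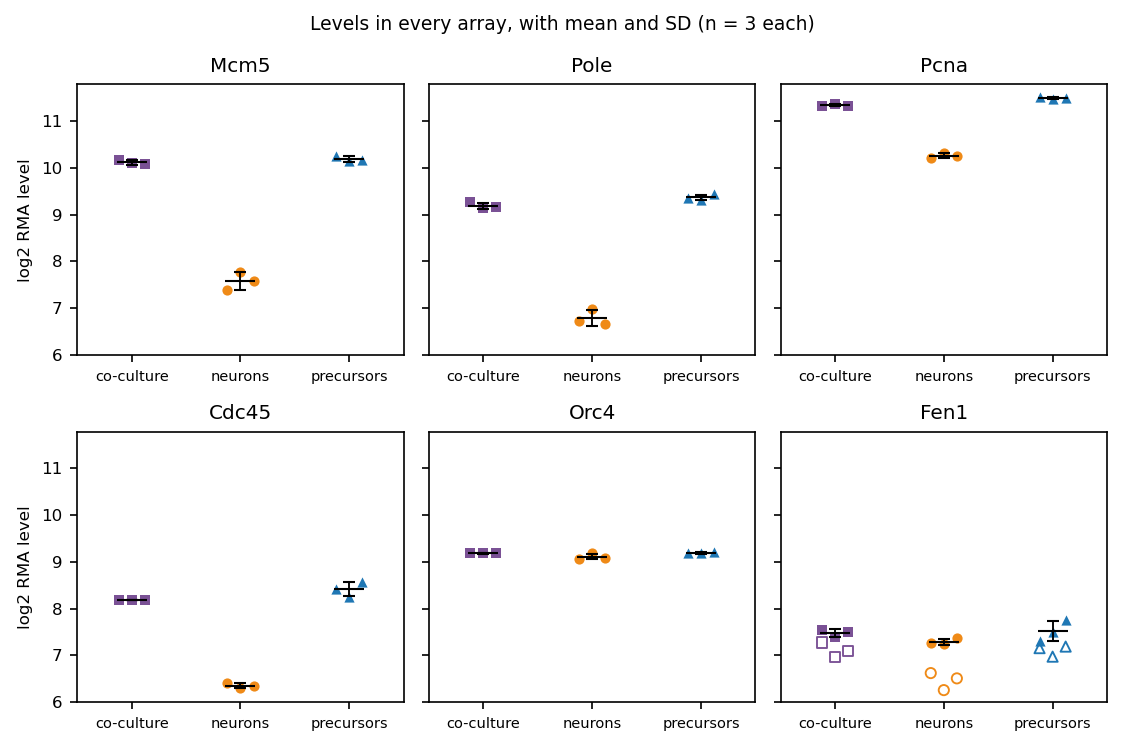
Log2 levels of chosen replication genes in every array, with co-culture at the left, neurons in the middle and precursors at the right of each panel. Points are single arrays and the bars show the group mean and SD of 3 arrays; open points in the Fen1 panel are its second probe set. Mcm5 neuron arrays lie between 7.40 and 7.78, below the co-culture arrays at 10.08 to 10.17 and the precursor arrays at 10.15 to 10.26, whereas the Orc4 arrays of all groups lie between 9.07 and 9.21.

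Genes around the core machinery were described from a further set of 63, of which 58 were measured and 57 tested. In neurons 51 of the 57 fell and 1 rose. Of all 13012 tested genes 35.2% fell and 3637 genes rose. Among 17 tested regulators of S-phase entry 16 fell, led by Ccna2 (-2.83), the S-phase cyclin, Rbl1 (-2.49), a pocket protein that binds E2F factors, and Cdk2 (-2.43), the kinase partner of cyclins E and A. All 8 E2F genes, E2f1 to E2f8, were among them, with log2 differences from -2.42 to -0.61. Rbl2, a pocket protein linked to quiescence, was the one short of the threshold and had a difference of 0.20 (adjusted p = 0.125), which passed without precursor replicate 3 (0.29, adjusted p = 0.0321).

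All 8 origin firing genes fell, with the largest differences for Ticrr (-2.08), which helps load Cdc45, Wdhd1 (-1.95), which ties polymerase alpha to the helicase, and Dbf4 (-1.85), the activator of the Cdc7 kinase. Of 11 further polymerase and fork genes 9 fell, led by the nuclease Dna2 (-1.46), the RNase H2 subunit Rnaseh2b (-1.45) and the checkpoint mediator Clspn (-1.30). Pold4, the small subunit of polymerase delta, went the other way and was higher in neurons, at 7.89, 7.87 and 7.86 in the co-culture arrays, 8.15, 8.15 and 8.19 in the neuron arrays and 7.93, 7.92 and 7.77 in the precursor arrays (log2 difference 0.29, SE 0.052, adjusted p = 7.85e-04). It was the only one of the 57 called higher in neurons, but under cyclic loess scaling Rbl2, Dctd, Rrm2b and Tk2 were called higher too (log2 differences 0.27, 0.16, 0.16 and 0.16, adjusted p = 0.0308, 0.0404, 0.0260 and 0.00790). With that scaling 4243 of all tested genes were called higher in neurons, against 3637 without it.

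The Mcm paralogs outside the ring fell too, with log2 differences of -0.93 for Mcm8 and -0.51 for Mcm9, both of them repair factors. Among topoisomerases, Top2a, the form of dividing cells and also one of the cycling markers, had a difference of -3.08, whereas Top1 and Top2b, which non-dividing cells also use, had -0.47 and -0.39, and all 3 passed the threshold. Of 10 further nucleotide genes 7 fell, led by Dck (-1.39), Shmt1 (-1.29) and Dut (-1.01). The 3 short of the threshold were Dctd (0.079), Rrm2b (0.13) and Tk2 (0.062), and Rrm2b passed without neuron replicate 1 (0.18, adjusted p = 0.0198). Rrm2b and Tk2 serve deoxynucleotide supply outside S phase. All 6 genes of chromatin copying fell, led by Uhrf1 (-2.03), which guides maintenance of DNA methylation, and the histone chaperones Asf1b (-2.02) and Nasp (-1.41).

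**Figure D4:**
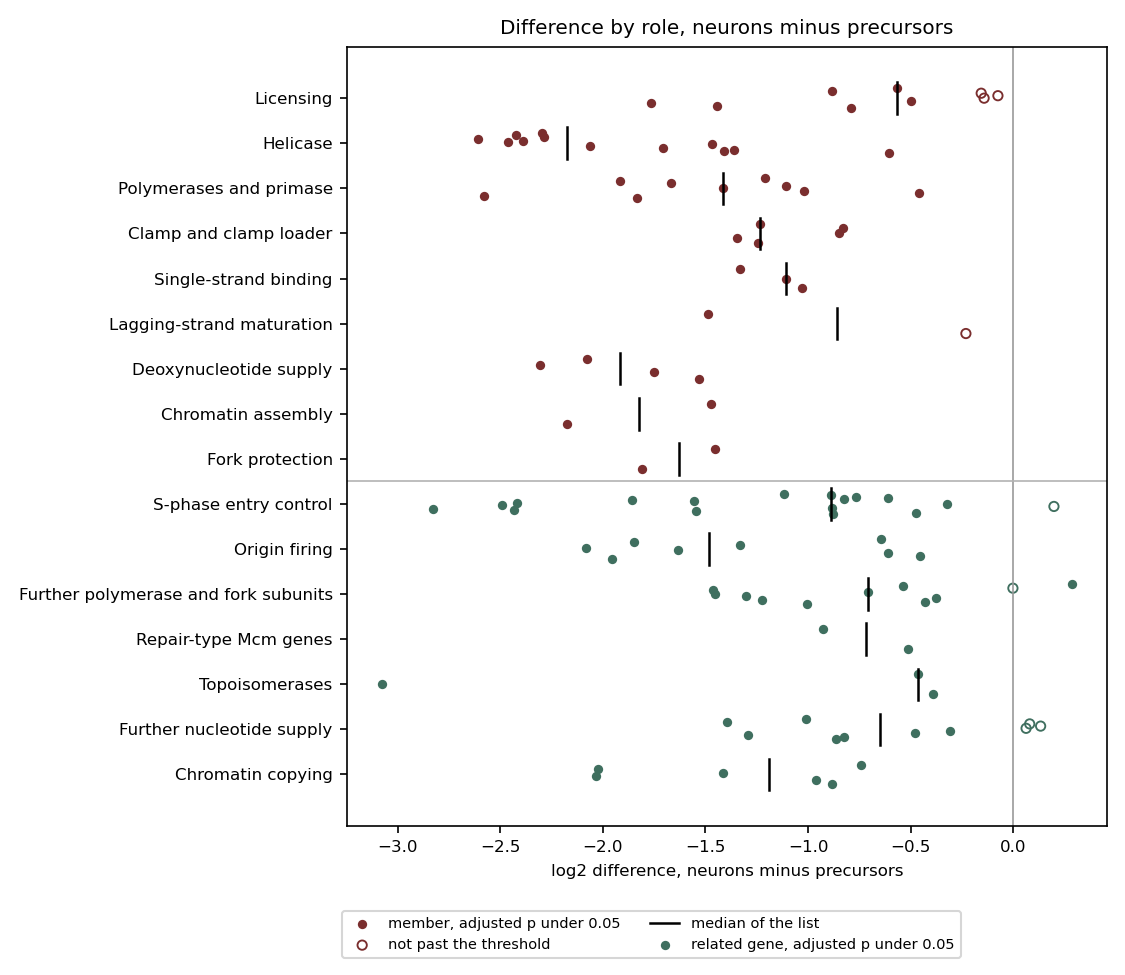
The horizontal axis is the log2 difference of neurons minus precursors and each point is 1 gene, in rows by role, with the 48 replication genes above the line and the 57 related genes below it. Filled points passed an adjusted p of 0.05, open points did not, and vertical bars are list medians. The helicase list has its median at -2.17 and the licensing list at -0.57, and Pold4 at 0.29 is the single filled point to the right of 0.

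In the co-culture, replication genes stood close to the precursor level. Of the 48 genes, 0 passed the threshold against precursors in limma, whereas 8.22% of all tested genes were called higher in the co-culture and 0.200% lower. Nearly all calls of this comparison were thus upward, 1069 against 26, and 0 replication genes were among them. The median log2 difference, co-culture minus precursors, was -0.073 over the replication genes and 0.020 over all tested genes. It was below 0 for 45 of the 48 genes, against 41.2% of all tested genes, and single differences ran from -0.23 to 0.058. At an unadjusted p under 0.05 there were 6 genes, Pcna, Cdc45, Mcm6, Pold1, Tk1 and Pole, and all 6 were lower in the co-culture. Of all tested genes 18.0% had an unadjusted p under 0.05 in either direction, and 2.22% had one and were lower. Cells of both kinds were in these dishes, so part of the RNA came from neurons.

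Pcna had log2 levels of 11.33, 11.37 and 11.32 in the co-culture arrays, against 11.52, 11.47 and 11.49 in the precursor arrays. The groups did not overlap, and the difference of -0.15 (95% interval -0.25 to -0.052) fell short of the threshold (adjusted p = 0.0743). Pcna passed where only genes above the 75th percentile were tested (adjusted p = 0.0307, range 0.0163 to 0.227 over the alternatives). Mcm6 had log2 levels of 9.42, 9.34 and 9.34 in the co-culture arrays, against 9.54, 9.52 and 9.58 in the precursor arrays (difference -0.18, adjusted p = 0.159). Cdc45 had log2 levels of 8.19, 8.19 and 8.19 in the co-culture arrays, against 8.42, 8.26 and 8.57 in the precursor arrays, with identical deposited values in the co-culture (difference -0.23, adjusted p = 0.102). Identical values in all 3 co-culture arrays were found for 1.26% of tested genes. The spread behind the Cdc45 test thus came from the other groups and from limma's pooling over all tested genes. Without neuron replicate 2, which enters through the shared estimate of the spread, Mcm6 and Pcna passed (adjusted p = 0.0347 and 0.0463), and without precursor replicate 2 Cdc45 passed (difference -0.31, adjusted p = 0.0187). Over the alternatives the adjusted p of Mcm6 ran from 0.0347 to 0.403 and that of Cdc45 from 0.0187 to 0.253.

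In 18 of the 48 genes all 3 co-culture arrays lay below all 3 precursor arrays, where 5.40% of all tested genes did so. The same held for 9 of the 57 related genes, 4 of 5 cycling markers and 4 of 8 radial precursor markers. It held for 0 of 4 markers of intermediate progenitors and newborn neurons. The 18 genes include Mcm3, Mcm4, Mcm6 and Mcm7 of the ring, the polymerase genes Pola2, Pold1 and Pole, the clamp Pcna, and Rrm1, Rrm2 and Tk1 of nucleotide supply. When arrays of the same number were set against each other, co-culture was lower than precursors for 37, 34 and 45 of the 48 genes in replicates 1, 2 and 3, with median log2 differences of -0.085, -0.054 and -0.13. Over all tested genes the shares lower were 40.2%, 32.4% and 47.7%. The co-culture was lower in all 3 pairs for 28 genes, against 12.7% of all tested genes. Replication genes also moved together by array. Co-culture replicate 1 was the highest co-culture array for 28 of the 48, against 37.8% of all tested genes. Precursor replicate 2 was the highest precursor array for 5, against 23.6%. Counts of genes are therefore not counts of separate results.

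**Figure D5:**
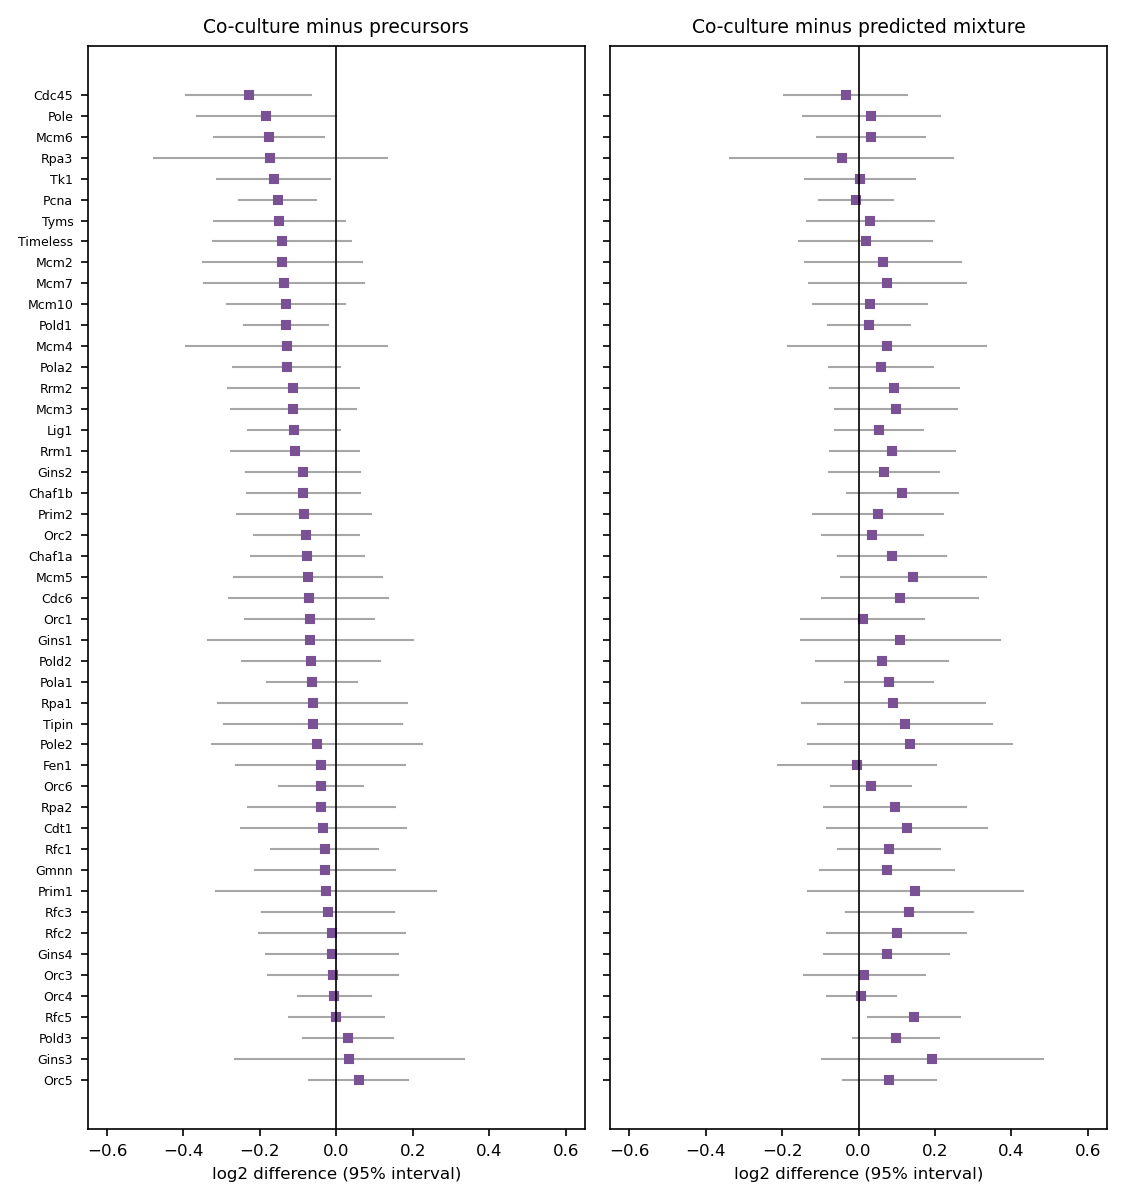
Co-culture differences of the 48 replication genes on the log2 scale, with each gene's 95% interval, against precursors and against the level predicted for a mixture of both cultures. Differences from precursors lie between -0.23 and 0.058 and differences from the mixture between -0.044 and 0.19. None passed an adjusted p of 0.05.

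Since the co-culture RNA came from both kinds of cells, each gene was also set against a predicted mixture. Neurons were estimated to contribute 16.7% ± 1.10 of the RNA (SD, n = 3 co-culture arrays), from 195 genes outside the replication and related lists that differed at least 4-fold between the separate cultures. The 105 genes higher in neurons gave 22.6% ± 1.18, and the 90 genes higher in precursors gave 10.8% ± 2.34 (SD, n = 3 each). Cycling genes outside those lists stayed in, among them Mki67, Bub1, Cdk1 and Aurkb (neurons minus precursors -2.96, -2.95, -2.71 and -2.52). A shift of such genes in the co-culture would enter the share, so the prediction is not independent of cell division. At the share of 16.7%, 0 of the 48 genes passed the threshold against the mixture in limma, where 0.392% of all tested genes passed in either direction. The median log2 difference, co-culture minus predicted mixture, was 0.075 over the replication genes and 0.034 over all tested genes, and 44 of the 48 were above 0, as were 71.2% of all tested genes.

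Single differences from the mixture ran from -0.044 to 0.19, and only Rfc5 had an unadjusted p under 0.05 (difference 0.15, adjusted p = 0.473), where 8.23% of all tested genes had one. The 36 replication genes at least 2-fold lower in neurons gave a median neuron share of 9.48% when each was solved for it, with single genes between -3.82% and 22.1%. With the share taken by direction, so that genes higher in precursors were predicted from their own share, the median difference from the mixture was 0.015. That share came in part from the cycling genes named above. The error of the share does not enter the test.

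Against neurons alone, the co-culture was higher for 45 of the 48 genes, where 35.7% of all tested genes were. The median log2 difference, co-culture minus neurons, was 1.33, and all 48 differences lay above 0, from 0.070 for Orc4 to 2.53 for Mcm5. The exception in sign was again Orc4 under cyclic loess scaling (-0.022). This comparison and the one of neurons with precursors share the neuron arrays. Mcm5 had differences of 2.53 against neurons (SE 0.086) and -0.074 against precursors (SE 0.086), and Pole had 2.40 (SE 0.081) and -0.18 (SE 0.081). The genes not past the threshold here were Orc3, Orc4 and Fen1, and Fen1 passed without precursor replicate 3 (adjusted p = 0.0398, range 0.00206 to 0.280 over the alternatives).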

How the data were processed

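Each deposited value is a log2 level of 1 probe set on 1 array. The authors computed these values by RMA with oligo, per the submitters' processing notes, and versions and genome build are not given in the sources used here. Scanner files were not analysed here. RMA corrects background, makes the arrays alike in distribution and summarises the probes of a set by a robust fit. Array medians lay between 6.75 and 6.79, values between 2.95 and 13.9, and correlations within a group were at least 0.988. Arrays have no read depth, so their number limits the precision.

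Of 41345 probe sets, the 23521 with 1 gene symbol were used, and the brightest stood for each of 22180 genes. A gene was tested where it exceeded the array median on 3 or more arrays, and 13012 genes did. All 9 arrays entered a single fit in limma 3.58.1 under R 4.3.3 (lmFit, eBayes), and two-sided p-values were adjusted by Benjamini-Hochberg over all tested genes, with a threshold of 0.05. The procedure was tested on simulated arrays with a single neuron share for all genes and independent errors. Shares that differ by direction, as estimated here, were not covered by that simulation. The predicted mixture was tested with a contrast specific to each gene, on the log2 scale, at the neuron share computed on the linear scale.

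The members and all lists were chosen with earlier results of these data known. All members may be named. Array values are given for the largest, the second largest and the smallest neuron difference of each role, and related genes are named for at most 3 of the largest differences per list and for any against the direction of its list. The E2F range, Rbl2, the 3 nucleotide genes short of the threshold, and the co-culture genes at an unadjusted p under 0.05 were chosen after their values were seen.

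Same-numbered co-culture and precursor arrays deviated from their group means together (correlations across genes of 0.34, 0.30 and 0.16). For neurons the correlations were 0.0043, 0.13 and -0.15 with precursors, and -0.0051, 0.27 and 0.17 with co-culture. Arrays of different numbers were not compared in this way, so these values do not settle whether the numbers pair any groups. Alternatives were the filter, the scaling, the mean of probe sets, the replicate block, an intensity trend, the share, and leaving out each array.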

Additional observations from a re-analysis of the deposited data

How the results depend on the processing

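The count of replication genes lower in neurons was 44 of 48, 37 of 39 with a filter at the 75th percentile, and 44 to 45 under the other alternatives. The count higher in the co-culture than in neurons was 45, 37 of 39 with that filter, and 44 to 46 elsewhere. Both kept their direction. With the replicate number as a block (replicate block) these counts were 45 and 45, and 0 genes passed against precursors or against the mixture. Fen1 passed under the block between neurons and precursors (adjusted p = 0.0443), and the block changed no other call. The count lower in the co-culture than in precursors was 0. It was 1 with the filter at the 75th percentile (Pcna, adjusted p = 0.0307), 1 with an intensity trend (Pcna, adjusted p = 0.0163), and 0 to 2 when single arrays were left out. Over all tested genes this last count was 26, and 7 (without co-culture replicate 1) to 51 (without neuron replicate 2) under the alternatives. The count off the mixture was 51 over all tested genes, and 3 to 581 under the alternatives, the extremes coming from a share higher or lower by 0.1.

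The median for neurons minus precursors was -1.43 and -1.39 with cyclic loess. The median for co-culture minus neurons was 1.33, with 1.28 under cyclic loess, 1.30 with the mean of probe sets and 1.30 to 1.37 when single arrays were left out. The median against the mixture was 0.075, with -0.015 at a share lower by 0.1, 0.17 at a share higher by 0.1 and 0.015 with the share by direction, as the construction of the mixture implies. The cause of the other changes was not tested. Rb1, a pocket protein, lost its call with the mean of probe sets (adjusted p = 0.0603). Orc5 passed between neurons and precursors with the stricter filter (adjusted p = 0.0347) and with the trend (0.0451). Between co-culture and neurons it was lost with cyclic loess (0.0793) and without co-culture replicate 1 (0.0518), and Fen1 passed there with the mean of probe sets (0.00206).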
